A study of Homo sapiens with 6 samples.

Results

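The C2H2 zinc finger genes of human chromosome 19 were examined in 6 polyadenylated RNA libraries of THP1, a monocytic line established from acute myeloid leukaemia. Members were all protein-coding genes of chromosome 19 in GENCODE 29 (GRCh38) whose symbol is ZNF followed by a number and at most 1 letter. There were 246 such genes among 34905 genes with transcripts in the tables, and all 246 were represented there, by 1644 transcripts. Another 263 protein-coding genes with symbols of this form lie on other chromosomes, and 1222 other protein-coding genes lie on chromosome 19. The libraries form 3 groups of THP1 cells with n = 2 each: a hairpin control labelled wild-type (shCtrl), an ALKBH5 knock-down (shALKBH5) and an ALKBH5 rescue. ALKBH5 removes the N6-methyladenosine mark from RNA, and the design asks which transcripts change when it is depleted and then restored. All groups share the 1 cell line, and the labels do not say whether a group is a clone or a pool, what the rescue cells carry beside ALKBH5, or whether replicates came from separate cultures. A p-value here reflects no more than how far these libraries differ from each other, and that spread may be technical. In such bulk RNA, fewer expressing cells and less RNA per cell cannot be told apart.

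Most of these genes encode DNA-binding proteins built from a tandem array of C2H2 fingers, each of which contacts a few bases. Many carry a KRAB domain at the amino end, which recruits the co-repressor TRIM28 and, through it, the histone methyltransferase SETDB1 and heterochromatin proteins, often at transposable elements. The family grew by repeated local duplication, so the genes lie in clusters of related copies along the chromosome. By translation of the GENCODE coding sequences, a member had a median of 12 fingers (range 0 to 36) and a median coding length of 589 codons. The exact core letters of the KRAB A box were found in 90 of 246 members, a count that leaves out variant KRAB boxes such as those of ZNF91 and ZNF93.

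ALKBH5 itself was checked first and ran against the labels, so the groups are named below only as labelled. In the order shCtrl, shALKBH5 and ALKBH5 rescue, ALKBH5 stood at 14.6, 12.4 and 13.6 CPM (counts scaled to library size) in the libraries numbered 1 and at 1097, 1003 and 968 CPM in those numbered 2. The level of ALKBH5 and the replicate number of the sample titles therefore cannot be told apart. Deviations from the group means correlated at 0.60 to 0.73 across genes between libraries of the same number, and the comparison of the numbers is given beside the group comparisons. Each library held 14534386 to 24857373 estimated counts. All 9 monocytic markers checked passed the low-count filter and summed to 2664 to 3269 CPM. Of the 21 markers of T and NK, B, erythroid and megakaryocyte, and epithelial and fibroblast cells, 6 passed it, and the highest sum of any of these 4 lists in a library was 22.1 CPM.

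Promoters of 4 members are shown because they belong to the members with the smallest p-values among those higher in number 2 (ZNF230 and ZNF671) and among those lower in number 2 (ZNF296 and ZNF584). Each window runs from 250 bases before to 50 after the gene's start in the RefSeq annotation of GRCh38.p14, 5′ to 3′ on the gene's strand. Capitals mark the ETS motif CCGGAAGT, the E-box CACGTG and CCAAT, on either strand. The windows are chr19:44002707-44003006 (plus strand) for ZNF230, chr19:57727575-57727874 (minus strand) for ZNF671, chr19:45076429-45076728 (minus strand) for ZNF296 and chr19:58408399-58408698 (plus strand) for ZNF584. The first 3 span the 5′ end of the GENCODE gene, while that of ZNF584 lies inside it, since GENCODE begins ZNF584 at 58401504.

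ZNF230: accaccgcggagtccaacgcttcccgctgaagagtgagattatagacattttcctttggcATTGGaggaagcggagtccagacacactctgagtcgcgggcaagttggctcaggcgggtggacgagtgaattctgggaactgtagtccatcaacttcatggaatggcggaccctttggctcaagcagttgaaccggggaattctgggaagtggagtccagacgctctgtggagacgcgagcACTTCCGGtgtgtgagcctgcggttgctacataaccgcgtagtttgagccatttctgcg

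ZNF671: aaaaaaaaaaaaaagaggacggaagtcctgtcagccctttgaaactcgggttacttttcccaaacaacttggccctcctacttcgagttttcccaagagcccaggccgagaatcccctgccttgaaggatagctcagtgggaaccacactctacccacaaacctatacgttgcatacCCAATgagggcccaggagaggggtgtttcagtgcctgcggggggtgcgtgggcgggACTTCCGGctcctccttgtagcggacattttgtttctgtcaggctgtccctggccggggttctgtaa

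ZNF296: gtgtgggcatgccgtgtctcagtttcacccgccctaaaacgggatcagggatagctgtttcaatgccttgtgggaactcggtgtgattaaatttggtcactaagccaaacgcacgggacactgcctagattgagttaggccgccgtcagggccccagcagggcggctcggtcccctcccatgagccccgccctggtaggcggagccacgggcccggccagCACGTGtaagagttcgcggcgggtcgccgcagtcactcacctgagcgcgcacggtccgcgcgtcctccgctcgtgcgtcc

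ZNF584: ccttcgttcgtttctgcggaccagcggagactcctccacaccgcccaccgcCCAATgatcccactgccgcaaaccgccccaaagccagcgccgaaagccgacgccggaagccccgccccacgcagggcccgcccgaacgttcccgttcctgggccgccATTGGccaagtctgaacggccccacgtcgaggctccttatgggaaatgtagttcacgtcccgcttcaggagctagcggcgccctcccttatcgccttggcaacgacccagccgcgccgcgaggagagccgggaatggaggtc

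The windows of ZNF230 and ZNF671 each hold an ETS match shortly before the start and a CCAAT match further upstream. Neither of the other windows holds the ETS letters; that of ZNF296 holds an E-box and that of ZNF584 a CCAAT match on each strand. RefSeq promoters were matched for 215 of the 246 members. ETS letters were present in 45 of them (20.9%), against 4.44% of all 27305 promoters in the table. CCAAT was present in 53.5% of the members' promoters against 35.7% of all, YY1 letters (AAGATGGCG) in 3.72% against 1.85%, NRF1 letters (GCATGCGC) in 4.19% against 3.27%, and the cAMP response element TGACGTCA in 3.26% against 1.98%. CACGTG was less frequent, at 4.19% against 7.43%. The members' windows held a median of 20 CG dinucleotides, and all windows a median of 14. A match describes the letters of the window and does not show that a factor binds there, and neighbouring members share sequence through duplication.

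Of the 246 members, 228 (92.7%) had enough counts to be tested and 18 (7.32%) were too low to judge. Among the other-chromosome zinc finger genes 86.3% were tested, and among all protein-coding genes 68.8%. The 18 low members were ZNF560, ZNF625, ZNF208, ZNF676, ZNF729, ZNF723, ZNF681, ZNF536, ZNF540, ZNF404, ZNF112, ZNF229, ZNF541, ZNF534, ZNF578, ZNF835, ZNF418 and ZNF135. ZNF560, ZNF676 and ZNF723 had 0 counts in all 6 libraries, where 3 counts, the limit that a count of 0 allows, correspond to 0.125 to 0.213 CPM of the matched counts. No low member exceeded 13 counts in any library. The highest was ZNF835 in the library labelled shALKBH5 replicate 1. ZNF208, a gene of the primate-expanded cluster at 19p12, had 0 to 5 counts per library.

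Tested members were expressed at low levels. Their median was 7.53 CPM, against 22.5 CPM over all 14497 tested genes, and 12 lay under 1 CPM, 71 from 1 to 5, 108 from 5 to 20 and 37 at 20 CPM or more. Per transcript length the median was 5.92 TPM (a level scaled for transcript length and depth) against 14.7 TPM over all tested genes. The highest mean levels per length were those of ZNF274 (45.7 ± 3.16 TPM, SD over 6 libraries), ZNF787 (42.2 ± 3.04), ZNF146 (38.4 ± 4.62), ZNF93 (34.5 ± 4.86), ZNF414 (33.8 ± 4.21) and ZNF580 (33.7 ± 1.88). The neighbours in this order overlap within their SDs. ZNF274 is a KRAB and SCAN protein that binds the 3′ ends of zinc finger genes themselves, and ZNF93 represses L1 retrotransposons. ZNF274 was level across the libraries, at 81.4, 83.8 and 81.9 CPM in number 1 and 89.3, 81.3 and 78.0 CPM in number 2, in the order shCtrl, shALKBH5 and ALKBH5 rescue. This order is kept for every list of 3 values below.

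Together the members took 2443, 2498 and 2270 CPM in the libraries numbered 1 and 2490, 2838 and 2967 CPM in those numbered 2. Number 2 was higher in each group, by little in shCtrl and most in ALKBH5 rescue. In TPM the sums were 1750, 1788 and 1556 in number 1 and 1852, 2062 and 2138 in number 2, in the same order. Transcripts annotated as protein coding held 86.6% to 88.3% of the members' counts and retained-intron transcripts 5.73% to 6.61%. Across the tested members, the correlation of log2 CPM was 0.952 to 0.978 for pairs of libraries with one number and 0.910 to 0.959 for the pair of libraries within a group. Both are descriptions over 228 genes of the same libraries.

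Between the replicate numbers, 62 tested members were higher and 14 lower in number 2 (edgeR quasi-likelihood test with group terms, Benjamini-Hochberg adjusted p under 0.05). Of all tested genes, 22.8% were called higher and 22.6% lower, 45.4% in all. Of the members these shares were 27.2%, 6.14% and 33.3%, with 62 of the 76 calls on the higher side. Libraries of the numbers did not overlap, with number 2 higher, for 69 members and, with number 2 lower, for 21; over all genes these shares were 28.6% and 29.1%. The median log2 fold change of the members was 0.29, a 1.22-fold difference, and 168 of 228 were positive. Over all tested genes the median was 0.01 and 51.2% were positive. Called members ran from 0.37 to 1.49 on the higher side and from -1.29 to -0.29 on the lower side. In DESeq2 the counts were 33 higher and 8 lower. The share of all genes called in DESeq2 is not given, so no background stands beside these counts. The B cell marker list also moved with the number: it summed to 5.78 to 6.94 CPM in number 1 and 8.98 to 10.4 CPM in number 2, with 2 of 4 markers tested and none at 0 in every library. T and NK markers (1 of 6 tested, CD3D and CD2 at 0) summed to 19.5 to 22.1 CPM and 14.8 to 19.1 CPM. Their part in the result was not tested.

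Zinc finger genes elsewhere and other genes of the same chromosome had lower medians. The 227 tested zinc finger genes of other chromosomes had a median of 0.09, with 57 higher (25.1%) and 32 lower (14.1%). Their higher share is near the 27.2% of the members and the 22.8% of all tested genes. The 836 other tested protein-coding genes of chromosome 19 had a median of -0.15, with 133 higher (15.9%) and 285 lower (34.1%). Of all tested genes 22.6% were called lower. Within the bounds of the zinc finger clusters themselves, 43 other protein-coding genes had a median of -0.27, with 3 higher (6.98%) and 16 lower (37.2%). There, 8 genes with other zinc finger symbols had a median of 0.28, with 1 higher (12.5%) and 0 lower. These are counts and medians, and the difference between the sets was not tested.

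**Figure D1:**
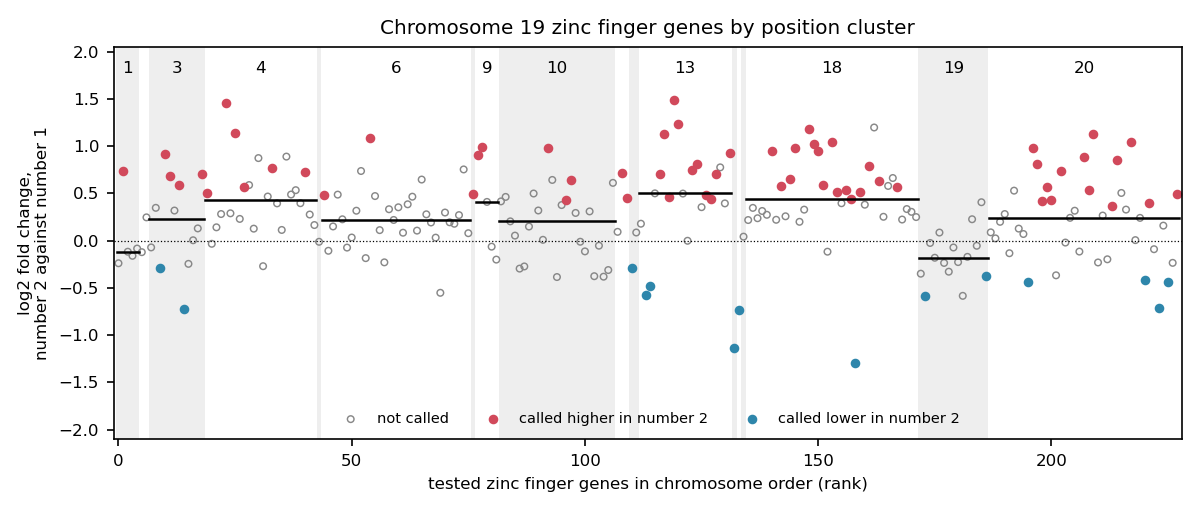
Log2 fold change of replicate number 2 against number 1 (y axis) for the 228 tested members in order along the chromosome (x axis, rank). Red points are the 62 called higher, blue points the 14 called lower, open points those not called; grey and white bands separate position clusters, whose number stands at the top where 5 or more members were tested, and black lines are those clusters' medians, from -0.18 in cluster 19 to 0.50 in cluster 13.

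ZNF230, a KRAB zinc finger gene of cluster 13, had the smallest p on the higher side. It was at 5.496, 6.86 and 5.13 CPM in number 1 and at 12.9, 17.2 and 18.9 CPM in number 2. Its highest level was in ALKBH5 rescue replicate 2 and its lowest in ALKBH5 rescue replicate 1 (log2 fold change 1.49, SE 0.16, n = 3 per number, edgeR adjusted p = 0.0001034). ZNF45, another KRAB gene of the same cluster, was at 17.1, 16.6 and 16.3 CPM in number 1 and 27.2, 26.5 and 27.6 CPM in number 2 (0.70, SE 0.11, edgeR adjusted p = 0.0007832). Its 3 libraries numbered 1 stood within 1 CPM of each other.

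ZNF671 of cluster 20 was at 9.69, 6.17 and 8.73 CPM in number 1 and at 16.6, 13.4 and 15.0 CPM in number 2 (0.88, SE 0.13). Over its protein-coding transcripts alone the difference was 0.41 (SE 0.16, edgeR adjusted p = 0.0845) and no longer called. ZNF528 of cluster 18 rose by 0.95 (SE 0.15), from 7.02, 9.71 and 7.95 CPM to 13.6, 15.2 and 18.9 CPM. The remaining 4 named on this side, ZNF419, ZNF530, ZNF772 and ZNF586, all lie in cluster 20, with log2 fold changes of 0.81, 0.74, 0.98 and 1.13. Lack of overlap between the numbers was a condition for naming all 8 and those on the lower side.

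On the lower side ZNF296 came first. It is a GC-rich gene outside the clusters whose protein is known as a partner of pluripotency factors, and it has 6 fingers and no match to the KRAB core. ZNF296 was at 19.96, 18.9 and 21.8 CPM in number 1 and at 8.73, 9.03 and 9.84 CPM in number 2, so that every library numbered 2 lay under 10 CPM (log2 fold change -1.14, SE 0.12, edgeR adjusted p = 9.493e-05). ZNF584 was at 26.6, 21.8 and 24.9 CPM in number 1 and at 16.4, 14.8 and 13.7 CPM in number 2 (-0.71, SE 0.12). ZNF576, ZNF579 and ZNF428 were lower by -0.57, -0.58 and -0.48, and ZNF114 and ZNF8 by -0.74 and -0.42. ZNF428 and ZNF8 were no longer called without either library labelled shALKBH5 (adjusted p 0.0558 and 0.06, and 0.152 and 0.164), nor was ZNF114 in DESeq2 (adjusted p = 0.0789).

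ZNF320 was listed at 15.6, 14.0 and 10.6 CPM in number 1 and 8.41, 6.72 and 2.34 CPM in number 2 (-1.29, SE 0.22). In its main transcript, the one with the highest mean count, 99.5% of the 31-base words also occur in other genes, most of them in ZNF468. ZNF468 was at 17.6, 20.6 and 19.9 CPM in number 1 and 19.5, 24.1 and 37.2 CPM in number 2 (0.44, SE 0.15). Added together they were at 33.2, 34.6 and 30.4 CPM in number 1 and 27.9, 30.8 and 39.5 CPM in number 2, and the numbers then overlapped. The fall of ZNF320 alone is therefore uncertain.

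**Figure D2:**
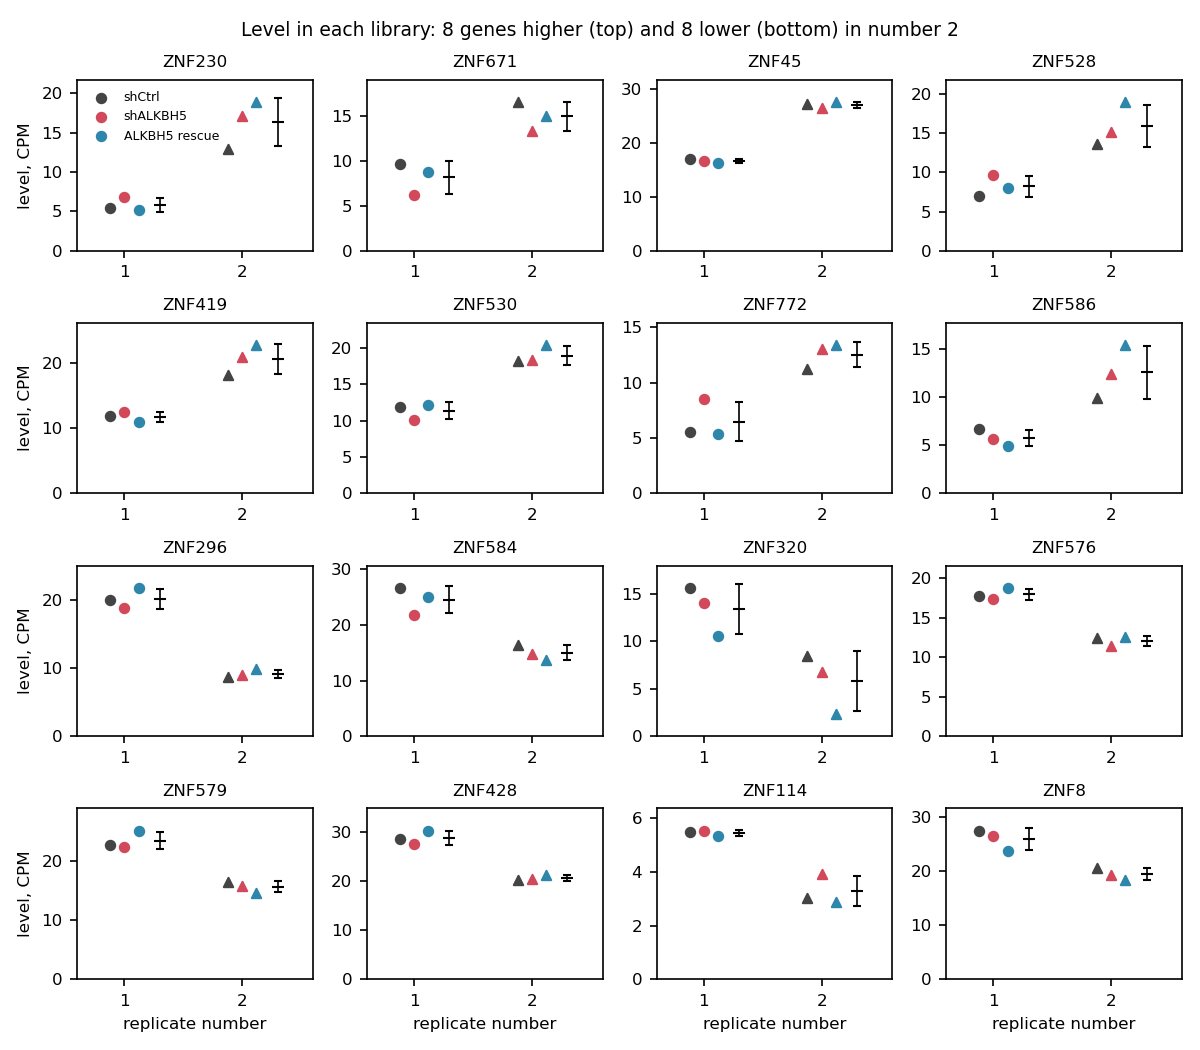
Level in CPM (y axis, from 0) of the 16 members named for the comparison of replicate numbers, by number (x axis). Circles are libraries numbered 1 and triangles those numbered 2, coloured by group; bars to the right give the mean and SD of the 3 libraries of a number, as for ZNF296, where all 3 circles lie at 18.9 CPM or above and all 3 triangles at 9.84 CPM or below.

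Members with known roles varied in how far they differed. ZNF224, a KRAB repressor first described at the aldolase A gene, was at 26.8, 24.2 and 25.4 CPM in number 1 and at 35.1, 45.6 and 49.0 CPM in number 2 (0.75, SE 0.13, edgeR adjusted p = 0.001391). It was called higher. ZNF91, which represses SVA elements, stood at 0.18 (SE 0.14), ZNF93 at 0.23 (SE 0.10), and ZNF331 at 0.25 (SE 0.11). ZNF350, a KRAB protein that binds BRCA1, was at 0.27 (SE 0.21), ZNF420, a regulator of p53, at 0.38 (SE 0.30), and ZNF382, a KRAB repressor, at -0.27 (SE 0.17). ZNF444, a SCAN-domain protein, stood at -0.23 (SE 0.10) and ZNF43 at 0.11 (SE 0.15). None of these 8 passed the threshold.

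ZNF146, which consists of fingers alone, did not keep 1 direction over the groups. It was at 47.3, 49.8 and 32.3 CPM in number 1 and at 36.7, 64.9 and 82.1 CPM in number 2. Number 2 was the lower library in shCtrl and the higher one in the other groups (0.46, SE 0.25, edgeR adjusted p = 0.152). With 1 library per group and number, whether the number difference depends on the group could not be tested.

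Position clusters were formed where the starts of neighbouring members lie within 500000 bases, which gave 20 clusters. Of these, 10 held at least 5 members and together 232 of the 246, and 7 were single genes. The median log2 fold change of number 2 against number 1 was above 0 in 8 of the 10 large clusters. It was above 0 in 9 of 12 with a gap of 250000 bases and in 8 of 9 with 1000000. The cluster counts below are to be read against the 22.8% of all tested genes called higher and the 22.6% called lower; clusters 1, 4, 6, 10 and 19 lie near or under the former. Differences of adjacent members within a cluster correlated at 0.22 over 210 adjacent pairs, given as a description, since neighbours share sequence and libraries.

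Cluster 13 (chr19:43525497-44500524) had the highest median, 0.50, with 11 of 20 tested members higher and 2 lower. Its summed level was 176, 169 and 169 CPM in number 1 and 203, 239 and 255 CPM in number 2. The higher members lie in 1 stretch. From ZNF45 to ZNF180 (chr19:43912629-44500524) there are 18 members, of which 2 were too low and 11 of the other 16 were called higher and 0 lower. They are ZNF45, ZNF221 (1.13), ZNF155 (0.47), ZNF230, ZNF222 (1.24), ZNF224, ZNF225 (0.82), ZNF226 (0.49), ZNF227 (0.44), ZNF235 (0.71) and ZNF180 (0.93), with their log2 fold changes where not given above. This stretch was singled out after its values were seen. Both members called lower, ZNF576 and ZNF428, lie before it.

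Cluster 18 (chr19:51571298-53580269) held 39 members, 28 of them with the KRAB core. Of its 37 tested members 16 were higher and 1, ZNF320, lower, with a median of 0.44. It summed to 391, 422 and 342 CPM in number 1 and 403, 530 and 590 CPM in number 2. Its leading member per length was ZNF83, at 12.95, 16.6 and 11.3 CPM in number 1 and 19.3, 30.8 and 34.6 CPM in number 2 (1.04, SE 0.18). ZNF83 was higher in number 2 in each group, and most so in ALKBH5 rescue.

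Cluster 20, at the end of the long arm (chr19:57191500-58481230), held the most members, 43. Of 41 tested, 14 were higher and 4 lower (median 0.24). It summed to 580, 567 and 549 CPM in number 1 and 638, 632 and 656 CPM in number 2, and the numbers did not overlap. Cluster 4 (chr19:11483427-12640098) had 6 of 24 higher and 0 lower, with a median of 0.43. Its median difference was 0.04 within shCtrl, 0.24 within shALKBH5 and 0.75 within ALKBH5 rescue. Cluster 3 (chr19:8509678-9793180) had 4 of 12 higher and 2 lower, with a median of 0.22. In cluster 10 (chr19:36182060-37817300) 3 of 25 were higher, with a median of 0.20. In the small cluster 9 (chr19:34677639-34964049) 2 of 5 were higher, among them ZNF302 (0.90, SE 0.22), and its median was 0.41.

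Cluster 6 (chr19:19668796-24129961), the large 19p12 block that holds ZNF91, ZNF93, ZNF43 and ZNF208, had few calls. Only 2 of its 32 tested members were higher and 0 lower, although the median was 0.22. It also held 5 of the 18 members too low to judge.

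Cluster 19 (chr19:55476332-56671783) went the other way in its median, -0.18, and its summed level. None of its 15 tested members was higher and 2, ZNF579 and ZNF71, were lower. As a share, 2 of 15 lies under the 22.6% of all tested genes called lower, so these calls are no result about the cluster. Its summed level was 267, 259 and 290 CPM in number 1 and 246, 240 and 231 CPM in number 2, without overlap. It is the most GC-rich of the large clusters, with a median of 63.5% in the main transcripts, and has 2 members with the KRAB core among 16. Cluster 1 (chr19:2819874-2944971) had a median of -0.12, with 1 of 5 tested members higher.

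**Figure D3:**
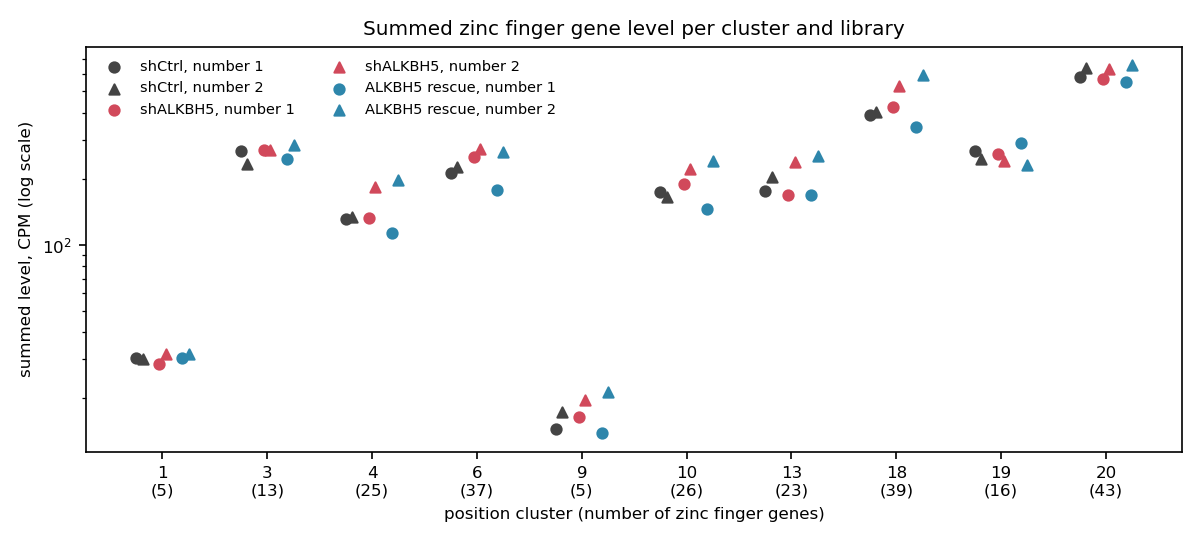
Summed level of the members in CPM (y axis, log scale) for the 10 clusters with 5 or more members (x axis, member number in brackets), in each library. Circles are number 1 and triangles number 2, coloured by group; in cluster 13 all triangles (203 to 255 CPM) lie above all circles (169 to 176 CPM), and in cluster 19 all lie below.

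Members with the KRAB core had a median of 0.35 between the numbers, with 29 of 83 higher and 5 lower. Those without it had 0.23, with 33 of 145 higher and 9 lower. Among the 137 members with at least 5 copies of the standard linker between fingers the median was 0.33, with 38 higher and 4 lower, and among the 91 with fewer it was 0.16, with 24 and 10. Near-identical copies make counts uncertain, so members were also split by the share of their main transcript's 31-base words found in other genes. The 165 under 20% had 42 higher and 10 lower (median 0.24) and the 63 at or above it 20 and 4 (0.39). For the 101 tested members whose exons overlap no other gene, whose reads strand cannot confuse, the counts were 26 and 7 and the median 0.24. Over all tested genes 22.8% were called higher and 22.6% lower. On the higher side the shares without the KRAB core (22.8%), with under 20% shared words (25.5%) and without overlap (25.7%) lie near that background. So do those with at least 5 linkers (27.7%), with fewer (26.4%) and over all tested members (27.2%). These higher-side shares are no result about the members. Those with the KRAB core (34.9%) and with at least 20% shared words (31.7%) lie above the background and were not tested against it. On the lower side the shares with and without the KRAB core were 6.02% and 6.21%. The set without the core letters also holds variant KRAB boxes, such as those of ZNF91 and ZNF93.

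The number difference was unequal across the groups. Within shCtrl the median difference in log2(CPM + 0.5) between number 2 and number 1 was 0.04 over the 228 members, with 126 positive. Within shALKBH5 it was 0.19, with 154 positive, and within ALKBH5 rescue 0.52, with 178 positive. Over all tested genes the medians were 0.00, -0.00 and 0.02. When either library labelled ALKBH5 rescue was left out, the members' median log2 fold change between the numbers was 0.15 in place of 0.29.

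**Figure D4:**
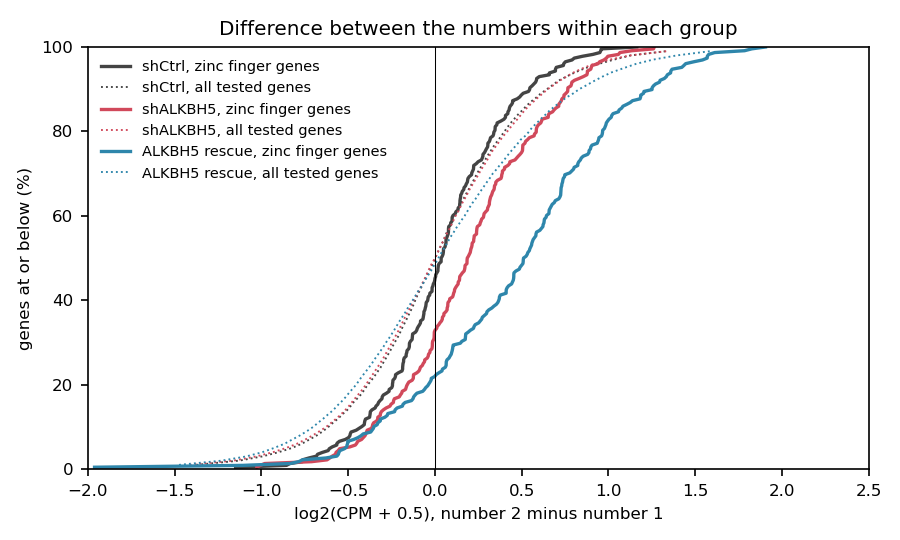
Cumulative share of genes (y axis, percent) by their difference between number 2 and number 1 in log2(CPM + 0.5) (x axis), within each group. Solid lines are the 228 tested members and dotted lines all tested genes; the members' medians are 0.04 in shCtrl, 0.19 in shALKBH5 and 0.52 in ALKBH5 rescue.

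Base composition moved with these differences. The main transcripts of tested members had a median GC content of 42.7%, against 49.5% over all tested genes. Across members, the log2 fold change between the numbers correlated with GC at r = -0.33 (rho = -0.27, n = 228 genes that share libraries, a description). All tested genes were cut into quintiles of GC. In the lowest, the 91 members had a median of 0.40 and the other 2807 genes 0.20. In the second the medians were 0.32 for 84 members and 0.07 for other genes, and in the third 0.15 for 27 and -0.03. The 5 members of the fourth stood at -0.38 and the 21 of the highest at -0.18, against -0.08 and -0.09. Within the lowest quintile, members and other genes were at 0.02 and -0.05 in shCtrl, 0.22 and 0.14 in shALKBH5, and, for ALKBH5 rescue, 0.73 and 0.45. The part of GC content in the members' difference was not tested.

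**Figure D5:**
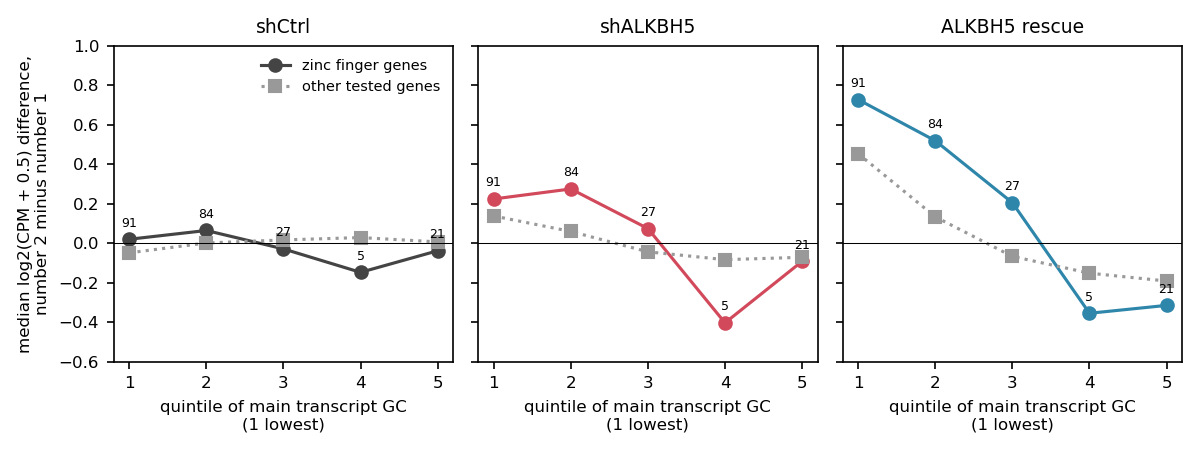
Median difference between number 2 and number 1 in log2(CPM + 0.5) (y axis) by quintile of main transcript GC content over all tested genes (x axis), within each group. Coloured circles are the members, with their number beside each point, and grey squares the other tested genes; in the lowest quintile the members stand at 0.02, 0.22 and 0.73 in shCtrl, shALKBH5 and ALKBH5 rescue.

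Promoter letters were also counted by call. Among members called higher in number 2 with a matched promoter, 17 of 55 (30.9%) held the ETS letters, and among those called lower 1 of 13 (7.69%), against 43 of 199 tested members (21.6%). CCAAT was present in 47.3% of the promoters of higher and 46.2% of those of lower members. The median CG dinucleotide number was 20 and 25. These shares were not tested against each other. Many of the members with ETS letters are neighbours in cluster 20, among them ZNF671, ZNF419, ZNF530 and ZNF586. That cluster also held 14 of the members called higher, so the ETS shares by call cannot be told apart from position.

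The comparison of the libraries labelled shALKBH5 with those labelled shCtrl called 0 of 228 members, as it called 0.0% of all genes (edgeR, n = 2 per group). At an unadjusted p under 0.05 it had 0 members, and 38 of all genes (0.262%). Fits without a term for the replicate number, here and in the other group comparisons, counted the difference between the numbers as spread. Their 0 calls therefore do not show that the members were alike. With replicate number as a block, 0 members and 0.0069% of all genes were called, and 12 members (5.26%) had an unadjusted p under 0.05, against 2.39% of all genes. DESeq2 and limma-voom, with or without the block, also called 0. Members leaned to the higher side without passing: the median log2 fold change was 0.14, with 165 of 228 positive, against -0.03 and 43.7% positive over all tested genes. The libraries did not overlap with shALKBH5 higher for 66 members and with shALKBH5 lower for 14, against 9.31% and 8.17% of all genes. Within number 1 the median difference was 0.05 and within number 2 it was 0.21. In the fit without the block the median was 0.26 without the library labelled shALKBH5 replicate 1 and 0.046 without shALKBH5 replicate 2.

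Cluster 6 had 30 positive members of 32 tested in this comparison, with a median of 0.32. The median GC content of its main transcripts was 38.3%. Clusters 4 (21 of 24, median 0.30), 18 (32 of 37, 0.22) and 10 (20 of 25, 0.22) leaned the same way. Clusters 3, 9 and 13 had medians of 0.14, 0.15 and 0.15, and clusters 1, 19 and 20 of -0.14, -0.02 and -0.05. The summed level of cluster 6 was 211 and 227 CPM under the label shCtrl and 251 and 274 CPM under shALKBH5, without overlap. Both members named on the higher side were from cluster 6. They had the smallest p among members at 2 CPM or more whose libraries did not overlap between the groups. The same conditions held for the members named in the other group comparisons. ZNF98 was at 5.35 and 6.33 CPM in shCtrl and reached 7.88 and 9.03 CPM in shALKBH5 (0.53, SE 0.27, edgeR adjusted p = 1), and ZNF43 at 6.87 and 6.97 CPM and 9.60 and 9.13 CPM (0.44, SE 0.25). On the lower side ZNF211 stood at -0.30 (SE 0.24) and ZNF547 at -0.51 (SE 0.42). GC content moved with this comparison too, at r = -0.39 and rho = -0.55 over the 228 members. In the lowest GC quintile the members' median was 0.32 and that of other genes 0.18. Its part was not tested.

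The libraries labelled ALKBH5 rescue, set against the shALKBH5 ones, gave 0 called members and 0.0% of all genes. No member had an unadjusted p under 0.05, and 43 of all genes did (0.297%). With the block 0 members were called, 0.0% of all genes were, and 7 members (3.07%) had an unadjusted p under 0.05, against 2.0% of all genes. The other tools, DESeq2 and limma-voom, called 0 as well. The median was -0.05, with 93 of 228 positive, against 0.01 and 52.1% positive over all tested genes. Libraries did not overlap for 7 members with ALKBH5 rescue higher and for 23 with it lower, against 5.39% and 6.53% of all genes. Within number 1 the median difference was -0.19 and within number 2 it was 0.04, so the numbers did not share a direction. Without ALKBH5 rescue replicate 1 the median in the fit without the block turned to 0.15, and without replicate 2 it was -0.34. In cluster 6, 4 of 32 members were positive, with a median of -0.27, and its sums were 178 and 264 CPM in ALKBH5 rescue. ZNF724 of this cluster was at 5.998 and 5.93 CPM in shALKBH5 but 2.78 and 4.61 CPM in ALKBH5 rescue (-0.70, SE 0.33), and ZNF43 was at 5.91 and 7.69 CPM in ALKBH5 rescue (-0.46, SE 0.25). ZNF211 (0.33, SE 0.24) and ZNF57 (0.33, SE 0.25) stood on the other side. This comparison shares its shALKBH5 libraries with the one before, so opposite signs are not independent.

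Set against shCtrl, the libraries labelled ALKBH5 rescue gave 0 called members and 0.0% of all genes. At an unadjusted p under 0.05 there were 0 members and 46 of all genes (0.317%), and with the block 7 members (3.07%) and 1.65% of all genes. With the block 0 members and 0.0069% of all genes were called, and DESeq2 and limma-voom called 0. The median was 0.06, with 147 positive (over all genes 47.3%), but it was -0.11 within number 1 and 0.23 within number 2. For 18 members the libraries did not overlap with ALKBH5 rescue higher and for 10 with it lower, against 3.98% and 6.15% of all genes. Without ALKBH5 rescue replicate 1 the median was 0.31 and without replicate 2 it was -0.23. ZNF468 (0.62, SE 0.33) and ZNF490 (0.62, SE 0.34) were named on the higher side and ZNF784 (-0.42, SE 0.28) and ZNF552 (-0.30, SE 0.30) on the lower. Both higher ones rest on the library labelled ALKBH5 rescue replicate 2, where ZNF468 was at 37.2 CPM against 19.9 CPM in replicate 1 and ZNF490 at 5.84 against 3.56 CPM. Most of the 31-base words of the main transcript of ZNF490 (72.7%) also occur in other genes.

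Genes of KRAB zinc finger co-repressors and of heterochromatin were examined by their RNA, as a list of 29. Of these 28 were tested, and ZFP57 had 0 counts in every library. Between the numbers 11 were higher and 2 lower, with a median of 0.17. Of all tested genes 22.8% were called higher and 22.6% lower, 45.4% in all. Both directions together, the calls on the list lie near that last share, so their number is no result about the list. TRIM28, the co-repressor bound by the KRAB domain, was lower in number 2, at 645, 616 and 656 CPM in number 1 and 492, 450 and 450 CPM in number 2 (-0.46, SE 0.08, edgeR adjusted p = 0.0017). MORC2, an ATPase of the HUSH silencing pathway, was lower as well (-0.53, SE 0.08). KDM4A, a demethylase of histone H3 lysine 9, was higher (0.70, SE 0.08), as was SUV39H1, a methyltransferase of the same residue (0.69, SE 0.10). SETDB1 stood at 0.11 (SE 0.08) and did not pass. In the 3 group comparisons 0 of the 28 were called.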

How the data were processed

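Polyadenylated RNA of THP1 was measured in 6 libraries, grouped by title. The authors deposited 1 table per library with an estimated count and a TPM value for each of 179973 transcripts. The submitters' processing notes name CASAVA, kallisto 0.43.1 and the build hg38, and no option of either tool. No source used here mentions molecular identifiers or strand in the quantification, so overlapping genes on opposite strands cannot be told apart. kallisto divides reads shared by several transcripts, which makes near-identical copies uncertain.

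The deposited estimated counts were summed per gene with GENCODE 29, which matched 163714 transcripts (91.0%), and rounded. Unmatched transcripts, among them copies on alternative haplotypes, held 3.13% to 3.32% of counts and were left out of library sizes. The test was that of edgeR 4.0.16 under R 4.3.3 (TMM, filterByExpr, glmQLFit and glmQLFTest on all 6 libraries, Benjamini-Hochberg over 14497 genes, threshold 0.05). A member was too low to judge where filterByExpr left it out. Standard errors were taken as the size of the log2 fold change over the square root of F. CPM values use the TMM-adjusted library size, and differences within a group or number are of log2(CPM + 0.5). Tested members had a median of 129 counts per library, and intervals cover no more than the spread of these libraries. The deposited TPM values were summed per gene for levels per length only.

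No label states a shared batch, but deviations of same-numbered libraries from their group means correlated at 0.60, 0.69 and 0.73, so the numbers were taken to pair the libraries. The biological coefficient of variation was 27.7% without a block for replicate number and 10.6% with it, on 3 and 2 residual degrees of freedom. Members and lists were chosen with earlier results of these data known. For the numbers, up to 8 members per direction were named by p among those called, at 2 CPM or more and without overlap. For each group comparison up to 2 per direction were named under the same level and overlap conditions, whatever the call. The 6 with the highest TPM, 13 with known roles and the leading member of each large cluster were eligible too. The other called members of the ZNF45 to ZNF180 stretch, and ZNF71, were named after their values were seen, as were ZNF468 and its sum with ZNF320. Fingers, linkers and the KRAB core were counted by pattern in translated GENCODE coding sequences, since no protein table was at hand. Alternatives were other scaling, filters, protein-coding transcripts alone, DESeq2 1.42.0, limma-voom (limma 3.58.1), each library left out, and the block; DESeq2 and limma-voom with the block, the GC quintiles and the smallest difference flagged were added after the data were seen. The procedure was tested on simulated data.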

Additional observations from a re-analysis of the deposited data

Results flagged for a closer look

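Some values pointed one way in 1 group or number and the other way in another. Each rests on 1 library per group and number, so the difference was not tested in any of them. Only differences of at least 0.1 on either side, or medians over all members, are given.

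The median difference of the tested members between ALKBH5 rescue and shALKBH5 was -0.1875 within number 1 and 0.0414 within number 2, on the log2(CPM + 0.5) scale. Between ALKBH5 rescue and shCtrl it was -0.1063 and 0.2267. Between number 2 and number 1, ZNF146 stood at -0.3631 within shCtrl and 1.334 within ALKBH5 rescue. ZNF350 stood at -0.1808 and 0.8542, and ZNF420 at -0.5921 and 0.9666, in the same order. The median of cluster 3 was -0.1405 within shCtrl and 0.4414 within ALKBH5 rescue, and that of cluster 10 was -0.1051 and 0.4553. All of these have the library labelled ALKBH5 rescue replicate 1 or 2 on 1 side.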

How the results depend on the processing

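For the members called and their median in the 4 comparisons, 110 of 116 alternative values kept their direction or stayed near the main value. This tally is loose. It counts as kept the 53 members called between the numbers over protein-coding transcripts alone, in place of 76. It also counts a median of 0.059 in place of -0.047, for ALKBH5 rescue against shALKBH5 without shALKBH5 replicate 2. The members called in the 3 group comparisons were 0 in every setting, and these values count among those kept. Of the values for single members, 382 of 388 did the same and none changed sign. Those members were named for lack of overlap between the libraries compared, so leaving out 1 library could hardly reverse a sign. DESeq2 called 41 members between the numbers in place of 76. Leaving out 1 library at a time changed how many members were called between the numbers and gave a median of 0.15 to 0.40 there. The same gave medians of 0.046 to 0.26 for shALKBH5 against shCtrl, -0.34 to 0.15 for ALKBH5 rescue against shALKBH5 and -0.23 to 0.31 for ALKBH5 rescue against shCtrl. These 3 ranges come from fits without the block, in which a group left with 1 library carries the number difference. With replicate number as a block the medians were 0.13, -0.06 and 0.05 with 0 members called, and the block changed no call of a member or of a listed partner gene. Over all genes it moved the calls from 0 to 1 for shALKBH5 against shCtrl and for ALKBH5 rescue against shCtrl. DESeq2 and limma-voom with the block, added after the data were seen, gave 0 as well. Over protein-coding transcripts alone 53 members were called between the numbers. For this setting and for DESeq2 the share of all genes called is not given, so these counts stand without a background. Members under 5 CPM (83 of 228 tested) and the 18 too low limit what can be said of them. With 2 libraries per group small differences could pass unseen. In the group fits without the block larger ones could too, since the difference between the numbers counted as spread there. For ALKBH5, shALKBH5 against shCtrl, the SE was 2.48 without the block and 0.11 with it.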
